A study of Mus musculus with 24 samples.

Results

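The core and naive pluripotency factors, 10 genes in all, were followed across 8 maps of H3K9ac, the acetylation of histone H3 on its lysine 9, which collects around the starts of active genes. The 10 genes, of 21883 protein-coding genes in the gene table, were taken by name. They are the core factors Pou5f1, Sox2 and Nanog, the Krüppel-like factors Klf2, Klf4 and Klf5, the naive-state factors Esrrb, Tfcp2l1 and Zfp42, and Sall4. A gene was counted as marked in a library when a deposited peak overlapped, by at least 1 bp, a window of 1000 bp either side of either annotated end of the gene. Of the 10 genes, 9 were marked in at least 1 library and 5 in all 8. Among all protein-coding genes 62.2% were marked in at least 1 library, and of those 72.8% were marked in all 8.

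The maps came from day 5 embryoid bodies, the aggregates that mouse embryonic stem cells form as they leave the pluripotent state, in the C57BL/6 strain. Both Gcn5 alleles were floxed in 4 libraries (fx/fx), from clone 4_1 or clone 6_1. The other 4 libraries were Gcn5 null, from clone 4_C2 or clone 6_C4, and every clone was represented by 2 libraries. Gcn5 is a histone acetyltransferase that can acetylate H3 lysine 9. Clones 4_1 and 4_C2 make isolate pair 4, and clones 6_1 and 6_C4 make isolate pair 6, so each genotype is represented by 1 clone per isolate. The labels give no separate cultures, so the tests measure the spread between these libraries, and the labels do not say which part of Gcn5 was removed. Sequencing depth is unknown. The lists held 12041 to 15315 peaks in pair 4 and 17849 to 20809 in pair 6, with replicate 2 of 4_C2 the shortest. Among markers of differentiating cells, a library had 9 to 14 of 15 primed epiblast genes marked, 4 to 13 of 14 primitive streak and mesoderm genes, 0 to 5 of 12 endoderm genes and 2 to 8 of 11 neuroectoderm genes. In such bulk samples, fewer cells of a type and less of the mark per cell cannot be told apart.

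Oct4 (encoded by Pou5f1), Sox2 and Nanog bind together at many enhancers of embryonic stem cells and activate one another's genes. The naive state that precedes implantation further relies on Esrrb, Tfcp2l1, Klf2, Klf4 and Klf5, and Zfp42 (also known as Rex1) is a standard marker of that state. As cells move toward the epiblast and the germ layers, the naive factors are shut off first, whereas Pou5f1 and Sox2 persist for longer, Sox2 into the neural lineage.

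The sequences around 6 annotated starts are shown first, because the acetylation described below differs between them. Each runs from 250 bases before to 50 bases after the start and is taken from RefSeq on GRCm38.p6, the assembly that mm10 represents. A promoter entry was matched for 8 of the 10 genes. Capitals mark matches, on either strand, to 6 motifs: the octamer core ATGCAAA bound by Oct4, the composite Oct4 and Sox2 site (CATTGT, any base, then ATGCAAA), which contains that core, the Esrrb site TCAAGGTCA, the E-box CACGTG bound by Myc and its relatives, the Krüppel-like site GGGNGTGG and the TATA box TATAAA.
Nanog, first start (chr6:122707239-122707538, plus strand): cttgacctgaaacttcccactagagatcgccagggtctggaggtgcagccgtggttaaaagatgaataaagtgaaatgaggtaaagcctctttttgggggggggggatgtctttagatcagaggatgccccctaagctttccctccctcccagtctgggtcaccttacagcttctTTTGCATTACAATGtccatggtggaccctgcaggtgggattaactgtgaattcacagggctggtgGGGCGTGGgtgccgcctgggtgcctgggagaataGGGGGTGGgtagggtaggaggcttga
Zfp42 (chr8:43306960-43307259, minus strand): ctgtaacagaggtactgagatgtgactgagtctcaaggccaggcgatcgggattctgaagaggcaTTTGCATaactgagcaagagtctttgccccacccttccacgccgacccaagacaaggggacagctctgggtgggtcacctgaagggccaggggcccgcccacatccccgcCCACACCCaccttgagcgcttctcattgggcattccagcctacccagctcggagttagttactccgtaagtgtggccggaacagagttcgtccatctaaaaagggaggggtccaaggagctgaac
Sox2 (chr3:34649745-34650044, plus strand): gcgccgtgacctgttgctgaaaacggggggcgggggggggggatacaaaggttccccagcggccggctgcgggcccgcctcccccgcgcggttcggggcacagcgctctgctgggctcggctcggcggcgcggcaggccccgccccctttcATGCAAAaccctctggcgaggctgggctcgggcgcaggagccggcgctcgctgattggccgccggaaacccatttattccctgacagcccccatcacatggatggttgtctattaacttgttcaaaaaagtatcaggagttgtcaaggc
Klf4 (chr4:55532426-55532725, minus strand): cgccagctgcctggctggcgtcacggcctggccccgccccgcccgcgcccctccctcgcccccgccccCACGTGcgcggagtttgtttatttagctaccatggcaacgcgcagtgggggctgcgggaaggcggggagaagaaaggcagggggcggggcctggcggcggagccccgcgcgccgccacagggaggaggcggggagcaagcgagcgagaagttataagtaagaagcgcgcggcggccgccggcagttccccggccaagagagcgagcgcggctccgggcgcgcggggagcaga
Esrrb, first start (chr12:86360867-86361166, plus strand): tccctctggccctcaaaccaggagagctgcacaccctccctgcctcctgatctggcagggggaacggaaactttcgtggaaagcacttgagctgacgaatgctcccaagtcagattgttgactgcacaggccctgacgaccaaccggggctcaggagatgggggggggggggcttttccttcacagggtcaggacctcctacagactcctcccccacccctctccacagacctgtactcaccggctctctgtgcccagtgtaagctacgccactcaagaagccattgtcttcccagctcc
Esrrb, inner start (chr12:86421394-86421693, plus strand): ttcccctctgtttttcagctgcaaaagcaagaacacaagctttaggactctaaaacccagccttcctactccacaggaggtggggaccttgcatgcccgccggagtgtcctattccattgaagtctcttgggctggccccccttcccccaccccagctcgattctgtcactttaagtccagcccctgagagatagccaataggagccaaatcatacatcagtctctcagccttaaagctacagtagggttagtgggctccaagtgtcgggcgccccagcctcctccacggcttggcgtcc

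The Nanog sequence holds the composite site on its minus strand, from -75 to -62 relative to the first start (negative positions lie before it), and 2 Krüppel-like matches, 1 on each side of the start. The composite site was found in 2 of 21262 promoter sequences of protein-coding genes (0.00941%), and both were those of Nanog, whose 2 annotated starts share it. The octamer core was in 4.23% of promoters and, among the 8 genes, in those of Nanog, Sox2 (-99 to -93) and Zfp42 (-185 to -179). The Krüppel-like site, in 19.4% of promoters, was in those of Pou5f1, Nanog, Tfcp2l1 and Zfp42. The E-box, in 7.84% of promoters, was in that of Klf4 alone of these genes, and the TATA box, in 12.6%, in that of Tfcp2l1 alone. No match to the Esrrb site, which 0.334% of promoters hold, and no match to any of the 6 motifs at either Esrrb start was found in these windows. A match is a description of the letters and not a measured binding site.

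Pou5f1 (chromosome 17, 35506032 to 35510777) encodes Oct4, the POU-domain factor without which the inner cell mass loses its identity. Covered length, the base pairs under a library's peaks in the merged region at the gene's ends, was 1989 and 1141 bp in the 2 replicates of 4_1, and 1034 and 0 bp in 4_C2. It was 6989 and 8376 bp in 6_1, and 7591 and 4451 bp in 6_C4. Every pair 6 library was above every pair 4 library, whereas the genotypes overlapped. In the 3 pair 4 libraries with a peak, it began at position -253, -357 or -317 relative to the start and ended 1735, 783 or 716 bases after it. In pair 6 the outermost edges lay between -4621 and -913 on the near side and between 3252 and 4055 on the far side, and peaks also lay over a second annotated start inside the gene, which no pair 4 peak reached.

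Sox2 (chromosome 3, 34649995 to 34652461), the HMG-box partner of Oct4, lay in the longest domain of the 10. Its covered length was 7229 and 6999 bp in 4_1, 5660 and 5569 bp in 4_C2, 8885 and 9708 bp in 6_1, and 7802 and 9605 bp in 6_C4. The mean over libraries was at percentile 99.5 of the marked genes. All pair 6 values were above all pair 4 values, and within pair 4 both null values were below both fx/fx values. In both replicates of 4_C2 the domain was interrupted just before the start, with 1 peak ending at position -112 in replicate 1 and -106 in replicate 2, and the next beginning at -20 and -21. In the other 6 libraries a single peak ran across the start.

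Nanog (chromosome 6, 122707489 to 122714633), the homeodomain factor that guards against differentiation, had a covered length of 1925 and 1592 bp in 4_1 and of 0 and 929 bp in 4_C2. In 6_1 it was 3241 and 4242 bp, and in 6_C4 it was 3172 and 3037 bp. Pair 6 was again above pair 4 in every library, and in both pairs the null values lay below the fx/fx values. The gene's far end carried a further peak in all 4 pair 6 libraries, between 6858 and 9578 bases after the start, and in no pair 4 library. A stretch centred at -4.4 kb from the start, where an enhancer of Nanog is known, was marked in all 4 fx/fx libraries and both libraries of 6_C4, but in neither library of 4_C2.

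**Figure D1:**
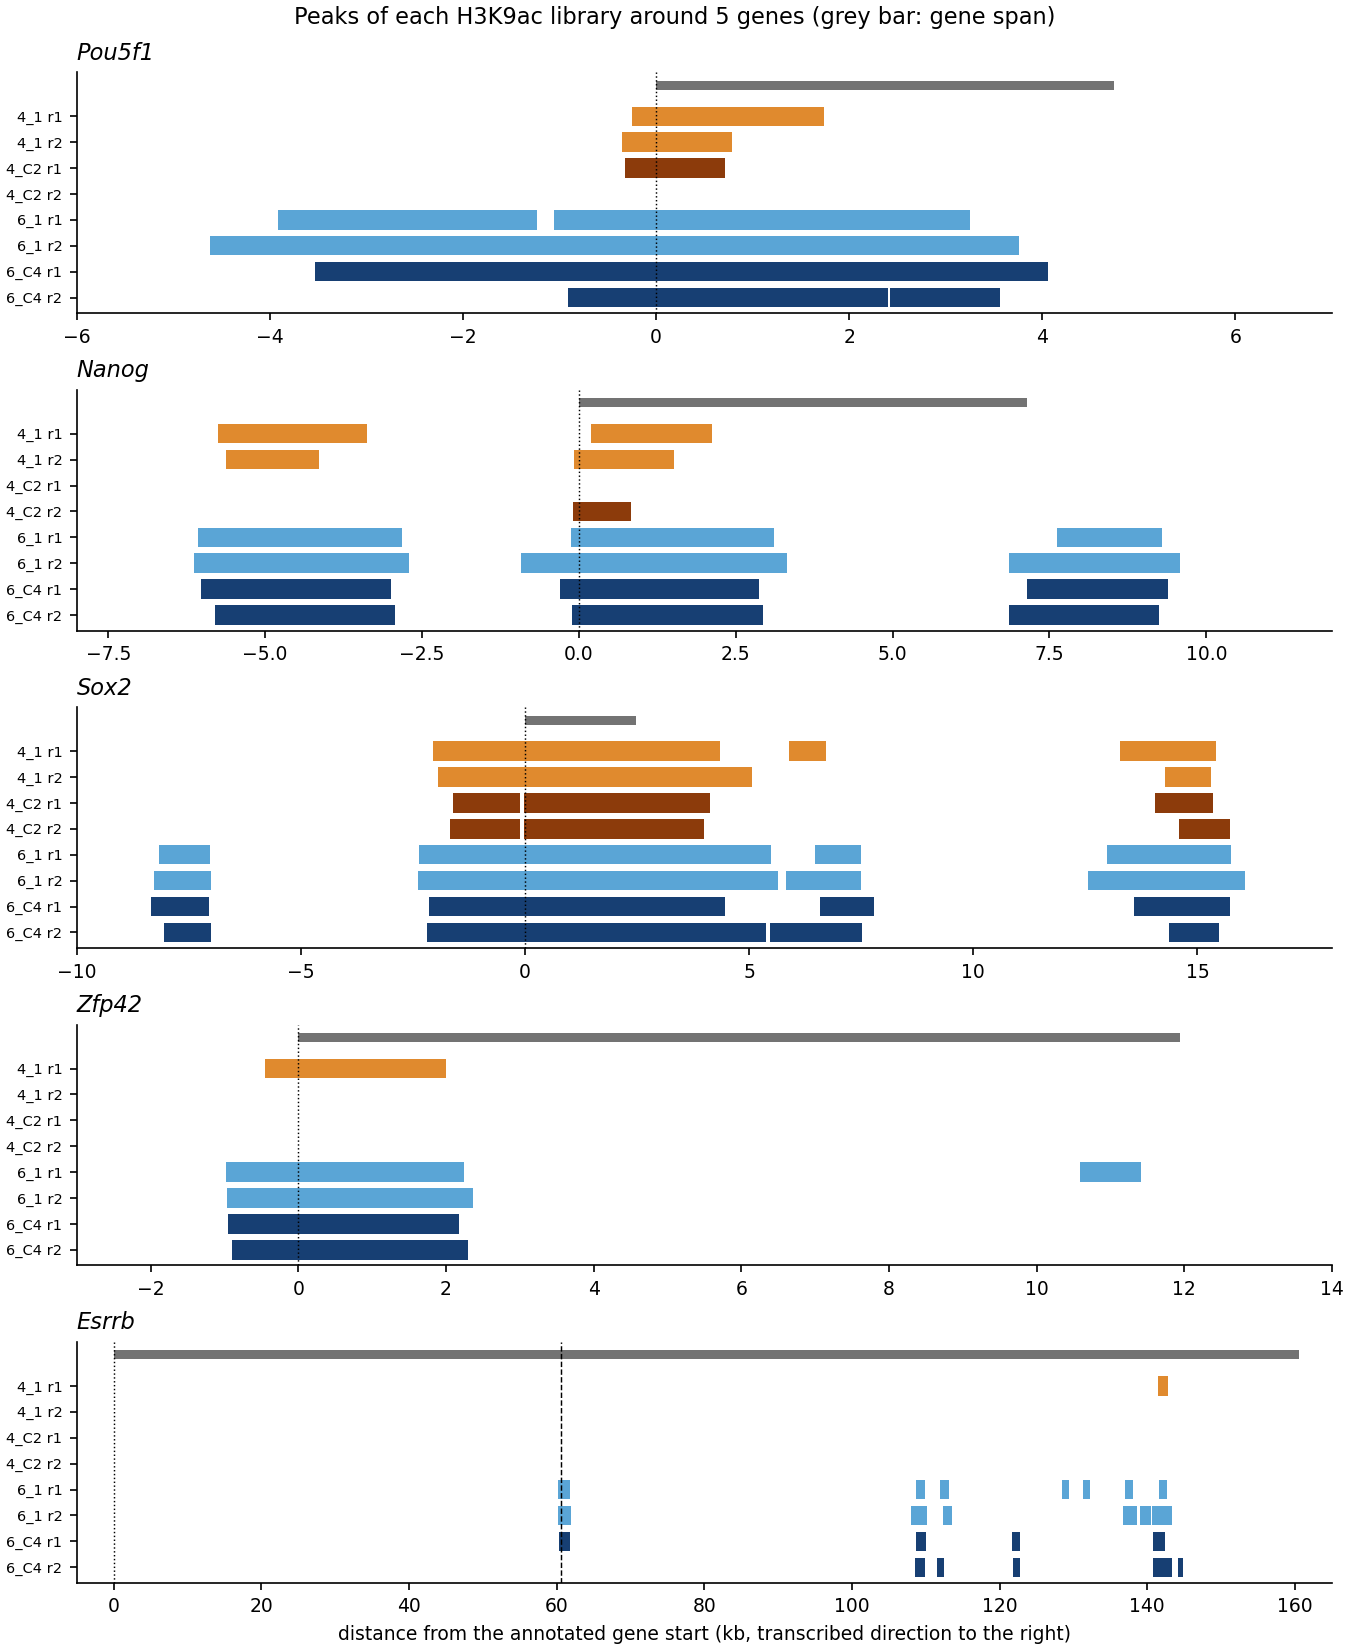
Peaks of each library (rows, coloured by clone, r1 and r2 for the replicates) around 5 genes, against the distance in kb from the annotated gene start, with the gene span in grey and a dashed line at the inner Esrrb start. The Pou5f1 peaks of pair 6 reach as far as position -4621 and those of pair 4 no further than -357, and the peaks inside Esrrb come from the pair 6 libraries but for 1 peak in 4_1 r1.

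The Krüppel-like genes encode zinc-finger activators that support self-renewal in overlapping ways, and each was marked in all 8 libraries. Klf2 (chromosome 8, 72319062 to 72321654) was covered over 4562 and 2811 bp in 4_1, 2635 and 1721 bp in 4_C2, 4490 and 7395 bp in 6_1, and 4633 and 4073 bp in 6_C4. The isolate pairs overlapped at Klf2 through replicate 1 of 4_1, and within pair 4 the null values were the lower ones. Klf4 (chromosome 4, 55527137 to 55532475) was covered over 3423 and 3747 bp in 4_1, 3581 and 2564 bp in 4_C2, 4239 and 4376 bp in 6_1, and 4428 and 3905 bp in 6_C4. A Klf4 peak lay over the start in every library, and its covered length was the lowest in replicate 2 of 4_C2. Klf5 (chromosome 14, 99298691 to 99313412) was covered over 2318 and 1673 bp in 4_1, 1954 and 774 bp in 4_C2, 3708 and 2802 bp in 6_1, and 3461 and 3235 bp in 6_C4. At Klf4 and Klf5 all pair 6 values were above all pair 4 values while the genotypes overlapped, and the Klf5 peaks lay at the gene's left end, the one with the lower coordinate.

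Zfp42 (chromosome 8, 43295067 to 43307009), a zinc-finger gene whose product is dispensable for self-renewal but tracks the naive state closely, was marked in the fewest libraries of the 9. It was covered over 2451 bp in replicate 1 of 4_1 and had no peak in the other 3 pair 4 libraries. In pair 6 it was covered over 3221 and 3339 bp in 6_1 and over 3129 and 3199 bp in 6_C4, with the peak across the start in each. The 2 replicates of 4_1 thus fell on opposite sides, while the 4 pair 6 libraries lay between 3129 and 3339 bp. The same pattern over the 8 libraries was shown by 176 of 13618 marked genes (1.29%).

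Tfcp2l1 (chromosome 1, 118627923 to 118685168), a CP2-family factor downstream of LIF signalling, had the shortest marked stretch of the 9. It was covered over 1608 and 964 bp in 4_1, 1205 and 0 bp in 4_C2, 1202 and 1579 bp in 6_1, and 1415 and 1423 bp in 6_C4. Neither the genotypes nor the isolate pairs separated. Absence from replicate 2 of 4_C2 alone, which Tfcp2l1 shared with Pou5f1, was the pattern of 706 marked genes (5.18%), whereas absence from replicate 1 of 4_C2 alone, as at Nanog, was that of 72 (0.529%).

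Esrrb (chromosome 12, 86361117 to 86521628), an orphan nuclear receptor that can stand in for Nanog in self-renewal, had no peak within 1000 bp of either end in any library. The first of its 2 annotated starts was bare in all 8, and the inner start, at position 86421644, lay under a peak in both libraries of 6_1 and in replicate 1 of 6_C4. No pair 4 library had a peak there. Further into the gene, a region centred 109.1 kb after the first start was marked in all 4 pair 6 libraries and in no pair 4 library. A region centred 142.0 kb after it was marked in all 4 pair 6 libraries and in replicate 1 of 4_1. The windows at the gene's ends therefore did not capture the acetylation of this gene.

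Sall4 (chromosome 2, 168748332 to 168767201), a zinc-finger factor that keeps Pou5f1 active, was covered over 4495 and 6116 bp in 4_1, 4156 and 2414 bp in 4_C2, 7265 and 7721 bp in 6_1, and 6222 and 7442 bp in 6_C4. Its mean was at percentile 98.2 of the marked genes, next to Sox2. The peaks lay at the right end of the gene. All pair 6 values were above all pair 4 values, and in pair 4 both null values were below both fx/fx values.

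**Figure D2:**
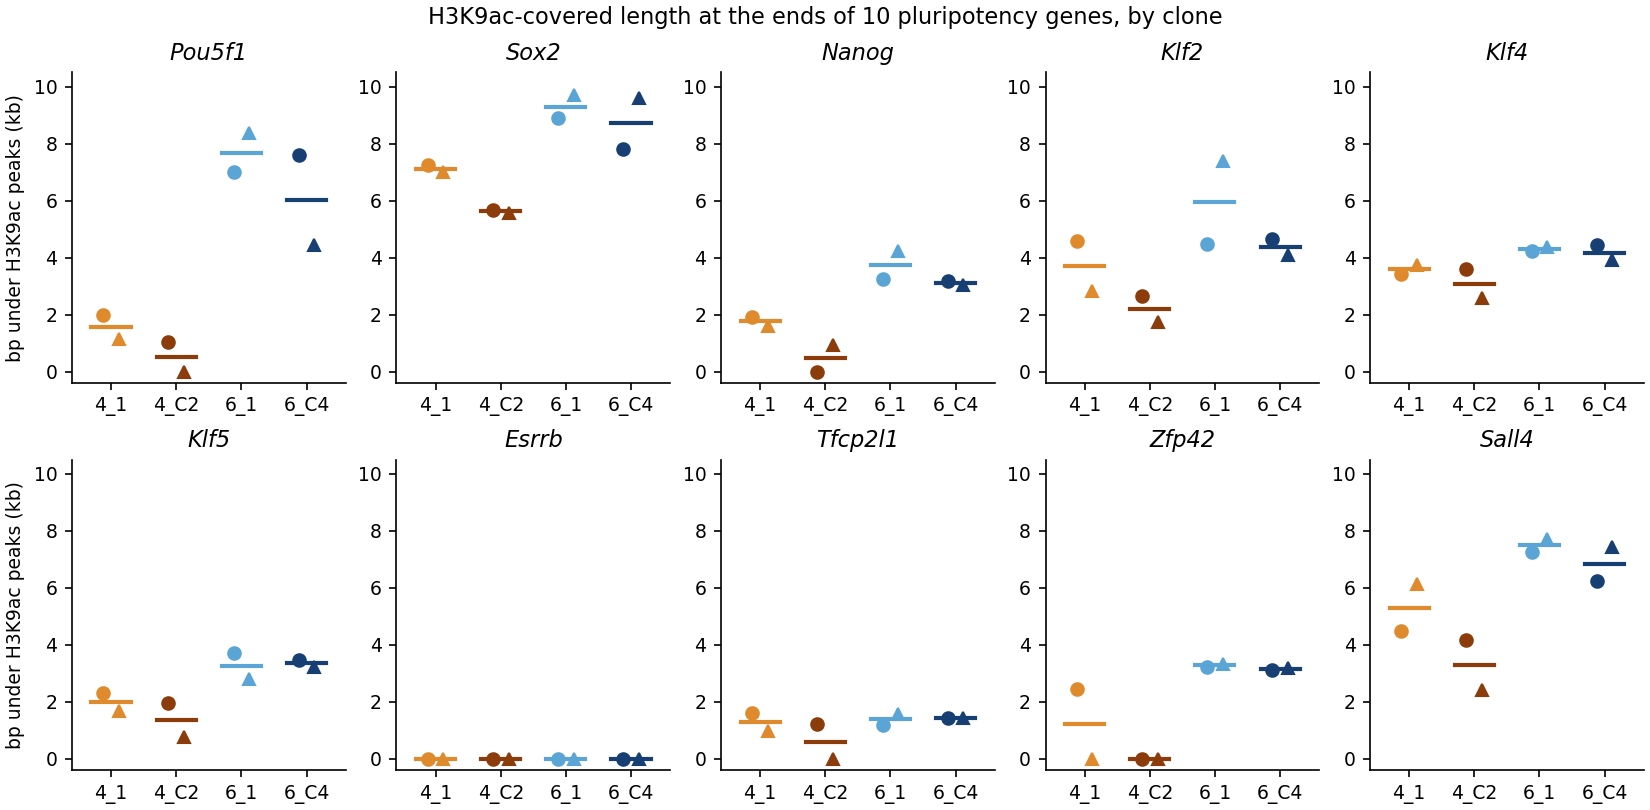
Covered length in kb at each gene (panels) by clone, with a circle for replicate 1, a triangle for replicate 2 and a line for their mean. At Pou5f1 the 4 pair 6 libraries lie between 4451 and 8376 bp and the 4 pair 4 libraries between 0 and 1989 bp, while Tfcp2l1 shows no such step.

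The genotypes were compared first. Pou5f1, Nanog and Tfcp2l1 were marked in 4 fx/fx and 3 null libraries, and Zfp42 in 3 and 2, so 4 of the 9 marked genes were marked in fewer null libraries, against 16.3% of marked genes in general. None of the 9 was marked in more null libraries, against 5.19% in general. All the absences lay in pair 4. In pair 6 the 9 genes were marked in both fx/fx and both null libraries. On average 8.75 ± 0.5 of the 10 genes were marked in fx/fx and 7.75 ± 1.5 in null libraries (SD, n = 4 each), while 56.0% and 53.7% of all protein-coding genes were. Without replicate 2 of 4_C2, the shortest list, the difference of -1 gene became -0.417, and 2 of the 4 differences in presence remained, those of Nanog and Zfp42.

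Covered length separated the 4 null from the 4 fx/fx libraries at 0 of the 9 genes, against 2.18% of marked genes with all null values lower and 0.0587% with all null values higher. Library medians of region width were themselves lower in null libraries, by a log2 shift of -0.136. Mean covered length at Pou5f1 was 3269 ± 3453 bp in null against 4624 ± 3594 bp in fx/fx libraries, and at Nanog it was 1785 ± 1572 against 2750 ± 1223 bp (SD, n = 4 each). The spread within a genotype, which takes in the gap between the isolate pairs, thus exceeded the difference at both genes. Inside pair 4, both null libraries were below both fx/fx libraries at Pou5f1, Sox2, Nanog, Klf2 and Sall4, which is 5 of the 9 against 29.7% of marked genes. Inside pair 6 this held for Nanog and Zfp42, 2 of the 9 against 39.9%. The opposite order was found at 0 of the 9 genes in either pair, against 4.13% of marked genes in pair 4 and 3.27% in pair 6.

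Width was then tested with limma on log2 covered length, centred on each library's median, with isolate pair as a covariate. The test ran over the 10171 regions found in all 8 lists, which include those of Sox2, Klf2, Klf4, Klf5 and Sall4. At an adjusted p of 0.05 limma called 0 of the 10171 regions (0%), and an unadjusted p under 0.05 was found for 327 regions with a narrower and 378 with a wider value in null libraries. The log2 change in null libraries was -0.44 ± 0.18 at Klf2 (SE, limma adjusted p = 0.716) and -0.30 ± 0.17 at Sall4 (SE, limma adjusted p = 0.731). It was -0.18 ± 0.24 at Klf5, -0.09 ± 0.10 at Sox2 and -0.01 ± 0.10 at Klf4 (SE, limma adjusted p between 0.874 and 0.986). The median of the 5 was -0.18, beside 0.02 over all regions tested.

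Within pair 4 the log2 difference, null minus fx/fx, was -0.61 at Klf2, -0.58 at Sall4, -0.53 at Klf5, -0.20 at Sox2 and -0.10 at Klf4. Within pair 6 it was -0.28, -0.01, 0.18, 0.02 and 0.08 at the same genes in that order. The 5 genes were all narrower in the null clone of pair 4, and their values in pair 6 were smaller in size. The test of that difference between pairs, a limma interaction term, called 0 of 10171 regions (396 and 281 in either direction at an unadjusted p under 0.05), and gave the 5 genes adjusted p-values from 0.801 to 0.911. With regions found in at least 4 lists and a pseudocount of 100 bp, 9 of the 10 genes could be tested, and limma called none of them for genotype. There 17 of 15383 regions were called narrower (0.111%) and 0 wider. On that scale the log2 change was -1.18 ± 0.78 at Pou5f1, -1.24 ± 0.88 at Nanog, -1.05 ± 1.03 at Zfp42 and -0.78 ± 0.81 at Tfcp2l1 (SE, limma adjusted p of 0.8 each). The interaction term was called in 0.39% of these regions in the negative and 1.86% in the positive direction, and at none of the 9 genes.

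The isolate pairs were compared next; for peak presence and covered length this comparison was added after the values had been seen. Pou5f1, Nanog and Tfcp2l1 were marked in 3 pair 4 and 4 pair 6 libraries and Zfp42 in 1 and 4, so 4 of 9 were marked in fewer pair 4 libraries, against 22.6% of marked genes. None was marked in more pair 4 libraries, against 2.47%. Covered length was higher in every pair 6 than in every pair 4 library at 7 of the 9 genes, all but Klf2 and Tfcp2l1, against 28.1% of marked genes, and lower in every one at none, against 0.279%. The mean in pair 4 and pair 6 was 1041 ± 815 and 6852 ± 1698 bp at Pou5f1, 613 ± 1226 and 3222 ± 87.3 bp at Zfp42, and 1112 ± 849 and 3423 ± 553 bp at Nanog (SD, n = 4 each). These are the genes with the widest gap between the pairs relative to their pair 4 mean. At Sox2 the means were 6364 ± 872 and 9000.0 ± 879 bp, and at Sall4 4295 ± 1518 and 7163 ± 655 bp. The pair 6 lists were also longer. With every list reduced to its 12041 widest peaks, 6 of the 9 genes kept the separation, against 26% of marked genes. Sox2 was the one that lost it. Peaks were kept by width, the quantity compared, so this reduction cannot take out a width difference that comes with list length. Counting base pairs inside the windows alone, the separation held at Pou5f1, Nanog and Zfp42, against 15.2%. Such a count cannot rise once a window is full. At Sox2 both windows (4002 bp) and at Klf4 the window at the start (2001 bp) were full in libraries of both pairs.

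By limma, 439 of 10171 regions were wider (4.32%) and 256 narrower (2.52%) in pair 6 after centring, and none of the 5 tested genes was among them in that fit. Their log2 changes were 0.81 ± 0.24 at Klf5, 0.59 ± 0.18 at Klf2, 0.54 ± 0.17 at Sall4, 0.24 ± 0.10 at Sox2 and 0.10 ± 0.10 at Klf4 (SE, limma adjusted p from 0.0734 to 0.563). The 5 changes were all above 0, with a median of 0.54 beside -0.02 over all regions. Centring takes out a shift of 0.265 between the pairs on the log2 scale. Without it, 2724 regions were called wider (26.8%) and 22 narrower (0.216%), and Sox2, Klf2, Klf5 and Sall4 were called wider (limma adjusted p from 0.0113 to 0.0266), while Klf4 was not (limma adjusted p = 0.0529). Some calls also turned with the design. Klf5 was called wider with a replicate block (0.81 ± 0.19, SE, limma adjusted p = 0.0424). Klf2 was called wider without replicate 1 of 4_1 (limma adjusted p = 0.0448) or of 6_1 (limma adjusted p = 0.0443), and Sall4 without replicate 2 of 4_1 (limma adjusted p = 0.0381).

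Pou5f1, Nanog, Tfcp2l1 and Zfp42 were absent from at least 1 list and could be tested with all 8 libraries only over regions found in at least 4 lists, with the pseudocount. There the log2 change was 2.87 ± 0.78 at Pou5f1 (SE, limma adjusted p = 0.0773) and 3.56 ± 1.03 at Zfp42 (SE, limma adjusted p = 0.09). It was 1.85 ± 0.88 at Nanog (SE, limma adjusted p = 0.233) and 0.77 ± 0.81 at Tfcp2l1 (SE, limma adjusted p = 0.538). None of the 4 was called, while 6.63% of regions were called wider and 2.65% narrower. Leaving out the 1 library without a peak selects on the outcome, so those values are given with no test. They were 2.19 at Pou5f1, 1.03 at Nanog and -0.04 at Tfcp2l1 on the log2 scale.

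**Figure D3:**
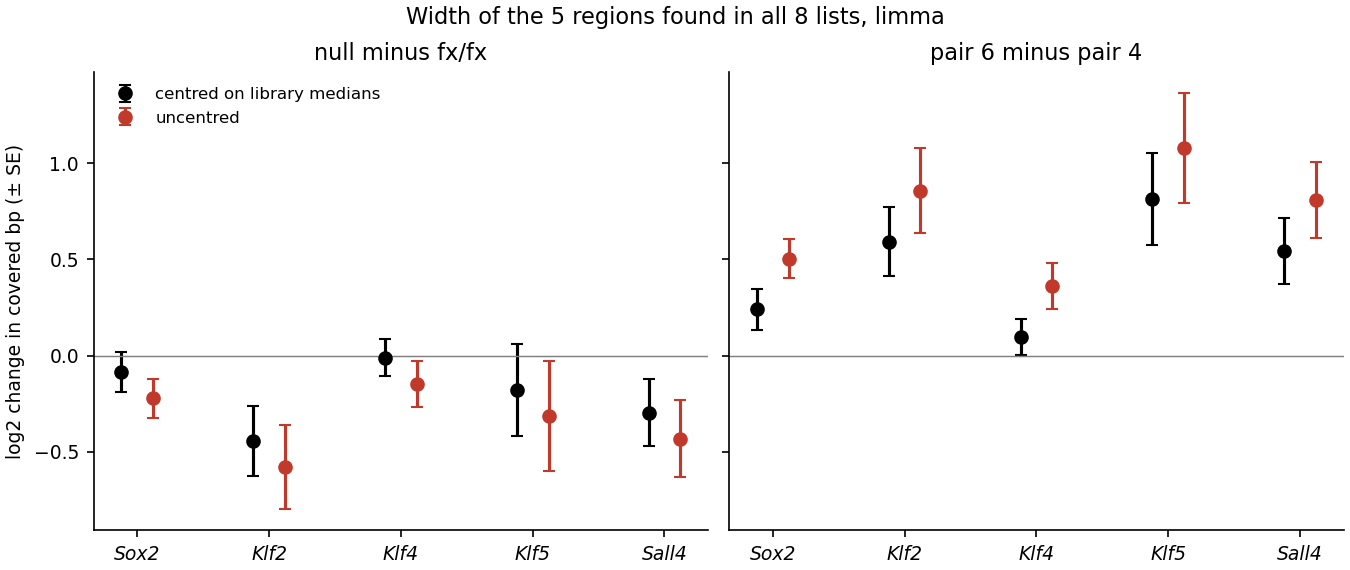
Log2 change in covered length with its SE from limma for the 5 genes whose region was in all 8 lists, null minus fx/fx on the left and pair 6 minus pair 4 on the right, centred on library medians (black) or not (red). All 5 pair changes lie above 0, from 0.10 at Klf4 to 0.81 at Klf5 after centring, and Klf2 has the largest genotype change at -0.44.

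Regions away from the ends of any protein-coding gene, a class that contains enhancers and also starts inside genes, were counted within 120 kb of each gene. Sall4 had 5, 5, 5 and 3 such regions in the pair 6 libraries and 0 in each pair 4 library. Esrrb had 7 and 6 in 6_1 and 4 and 6 in 6_C4, against 1, 0, 0 and 0 in pair 4. The Esrrb counts include the region over its inner start, marked in 3 pair 6 libraries. Klf2 had 7, 7, 5 and 4 in pair 6 against 2, 0, 0 and 0. At Pou5f1, Sox2, Klf2, Esrrb and Sall4 every pair 6 library held more than every pair 4 library. These are 5 of 10 genes, Zfp42 being without any such region, against 19.6% of genes with any such region. The mean over those genes was 1.15 regions in pair 4 and 2.43 in pair 6 libraries. Null and fx/fx libraries separated at none of the 10. Of genes with any such region, 0.0269% had fewer in every null than in every fx/fx library.

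The single regions differed in how constant they were. At Sox2 a region centred 14.3 kb after the start was marked in all 8 libraries, one centred at -7.7 kb in the 4 pair 6 libraries alone, and one centred 107.2 kb after it, where the distal control region of Sox2 lies, in 3 pair 6 libraries and no pair 4 library. At Klf4 a region centred 17.4 kb after the start was marked in 4 pair 6 and 3 pair 4 libraries. At Nanog a region centred at -44.4 kb from the start was marked in 4 pair 6 libraries and 1 of pair 4. Zfp42 had no such region in any library, and Klf5 and Tfcp2l1 had at most 1.

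**Figure D4:**
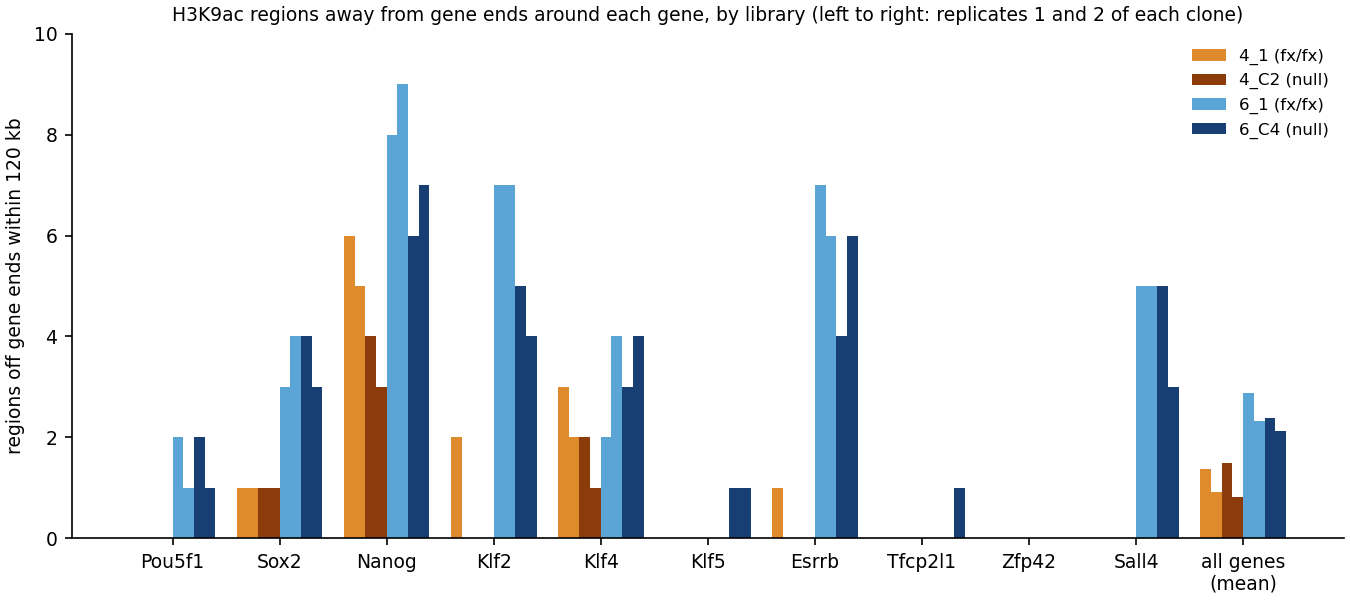
Number of merged H3K9ac regions away from gene ends within 120 kb of each gene in each library (bars, coloured by clone), with the mean over all genes that have any on the right. Sall4 has 3 to 5 in the pair 6 libraries and 0 in pair 4, and Zfp42 has 0 throughout.

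The starts were further described by their CpG content, as the ratio of observed to expected CpG over the same 300 bases, which is low at starts without a CpG island. Sox2, Klf2 and Klf4, marked in all 8 libraries, had ratios of 0.819, 0.889 and 0.974. Tfcp2l1 had 0.656, Zfp42 0.441, Pou5f1 0.374 at its first start, Nanog 0.192, and Esrrb 0.266 at the first and 0.318 at the inner start. Klf5 and Sall4, also marked in all 8, had no promoter entry. Among the 8 genes with one, the 3 marked in all libraries thus had higher ratios than the other 5. The same order held over the genome, with a median ratio of 0.818 for the 9791 starts with a peak within 1000 bp in all 8 libraries, 0.569 for the 3439 marked in 1 to 7, and 0.186 for the 8032 marked in none. Of starts with a ratio under 0.5, 9.23% were marked in all 8 libraries and 76.3% in none, so Nanog and Pou5f1 were marked in more libraries than most starts of such low CpG content.

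**Figure D5:**
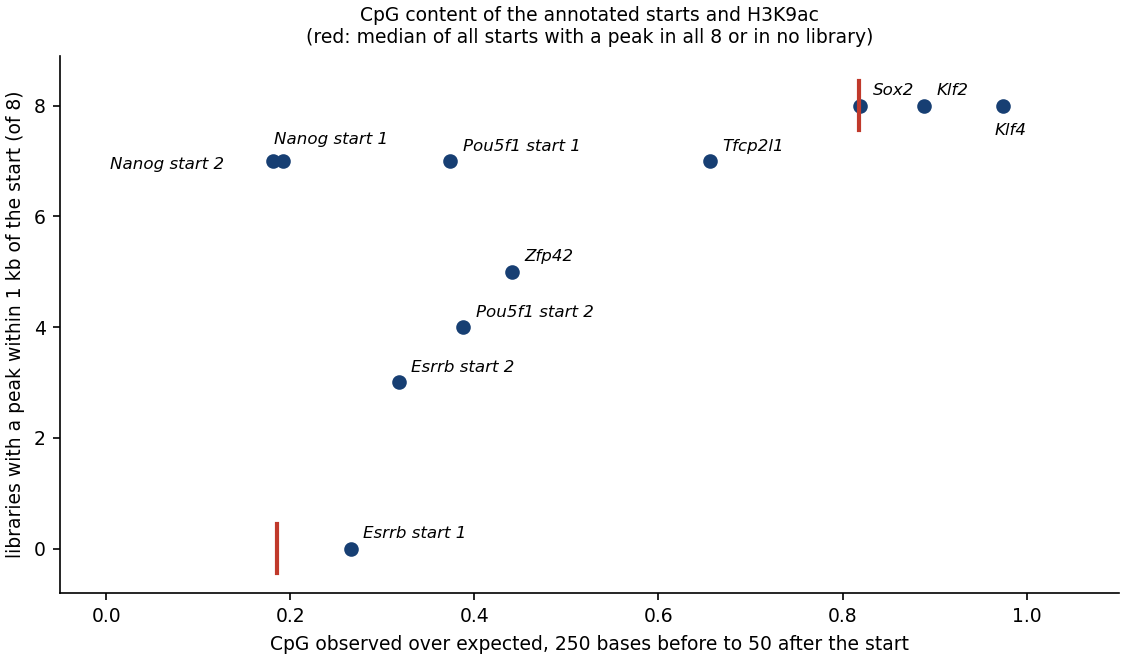
Ratio of observed to expected CpG around each annotated start (horizontal) against the number of libraries with a peak within 1 kb of it (vertical), for the 8 genes with a promoter sequence; red ticks give the median of all starts marked in all 8 (0.818) or in no library (0.186). Klf4, Klf2 and Sox2 sit at the upper right, and the Esrrb, Nanog, Zfp42 and Pou5f1 starts below a ratio of 0.5.

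A wider list of 47 other pluripotency genes was read in the same way. In it, 42 genes were marked in at least 1 library and 26 in all 8. Of the 42, 10 were marked in fewer null than fx/fx libraries and 0 in more, beside 16.3% and 5.19% of all marked genes. In fewer pair 4 than pair 6 libraries 16 were marked and 0 in more, beside 22.6% and 2.47%. Covered length was higher in every pair 6 than in every pair 4 library at 27 of the 42, beside 28.1% of all marked genes. It was lower in every pair 6 library at 0, beside 0.279%. The germline regulator Prdm14 was marked in 3 fx/fx and 1 null library, Dppa2 in 2 and 1, Dppa4 and Foxd3 in 3 and 2, and L1td1 in 4 and 3. Dppa4, Foxd3 and Tdgf1 were among those that shared the pattern of Zfp42, with replicate 1 of 4_1 and the 4 pair 6 libraries. Dnmt3l, Dppa3, Dppa5a and Fbxo15 were marked in all 4 pair 6 and no pair 4 library, a pattern of 1.01% of marked genes. For genotype limma called 0 of the 26 genes tested, with a median log2 change of -0.05. Between pairs, where 4.32% of all regions were called wider and 2.52% narrower, it called 4 of the 26 wider in pair 6, namely Tet1 (1.19 ± 0.13), Gdf3 (0.91 ± 0.20), Msh6 (0.79 ± 0.09) and Tcf3 (0.54 ± 0.12), and 2 narrower, Socs3 (-0.42 ± 0.09) and Il6st (-0.35 ± 0.08), each as a log2 change with its SE (limma adjusted p from 0.00174 to 0.0334). Socs3 and Il6st encode a feedback inhibitor and a receptor subunit of the LIF and cytokine pathway, which the list was written to include. Stat3, of the same pathway, was not called (-0.57 ± 0.18, SE, limma adjusted p = 0.0938), and Lifr was marked in no library. These changes follow centring, which takes out the shift of 0.265 between the pairs. Mean covered length in pair 4 and pair 6 was 3688 and 3308 bp at Socs3 and 2667 and 2502 bp at Il6st. Tcf3 here is the gene of that RefSeq symbol and not Tcf7l1, which the list did not hold.

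Markers of other cell types were counted too. Of 12 endoderm genes, 6 were marked at all, 1 to 5 of them in fx/fx and 0 to 5 in null libraries, or 0 to 5 in pair 4 and 5 in each pair 6 library. Foxa2, Sox17 and Sox7 had the pattern of Zfp42. Of 14 primitive streak and mesoderm genes, all marked in at least 1 library, 10 were marked in fewer null libraries and 1, Fgf8, in more, beside 16.3% and 5.19% of all marked genes. In fewer pair 4 libraries 10 were marked and 1, Hand1, in more, beside 22.6% and 2.47%. Eomes, Gsc, Hand2 and Tbx6 were each marked in 4 fx/fx and 2 null libraries, with both 4_C2 libraries the ones without a peak. Fgf15, Sall2 and Sox3 of the primed epiblast list and Twist2 of the fibroblast list had the same pattern. In fewer null libraries were also 5 of 14 marked primed epiblast, 5 of 6 endoderm, 4 of 9 neuroectoderm and 4 of 6 fibroblast genes. In these lists 1 endoderm gene was marked in more null libraries. T was marked in 2 libraries of each genotype. Of 11 neuroectoderm genes 2 to 6 were marked in pair 4 and 7 or 8 in pair 6 libraries, and of 12 fibroblast genes, which feeder cells would express, 2 to 4 and 3 to 5. Of 15 primed epiblast genes 9 to 14 were marked in pair 4 and 14 in each pair 6 library. Of the 12 fibroblast genes, Twist1 and Fbn1 were marked in all 8 libraries, Twist2 in 6, Thy1 in 3 and Col1a1 and Col1a2 in 1 each, while Col3a1, Dcn, Lum, Postn, Prrx1 and Acta2 were marked in none. Neuroectoderm counts were thus higher in every pair 6 than in every pair 4 library. The share of all protein-coding genes marked had the same order, at 47.5% to 55.5% in pair 4 and 56.3% to 59% in pair 6 libraries. Counts of the endoderm, mesoderm, epiblast and fibroblast lists overlapped or touched between the pairs. The part of these cell types in the differences at the 10 genes was not tested.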

How the data were processed

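The 8 H3K9ac ChIP-seq libraries were analysed from peak lists that the authors deposited, which give chromosome, start and end and no score. The submitters' processing notes name Bowtie 1.1.2, MACS 1.4.2 and mm10. Thresholds, control libraries and filters are unknown, and 16 libraries of total H3 or input were left aside. Overlapping peaks (1 bp or more) were joined across lists, giving 26034 regions, 10171 of them present in all 8. Each gene was assigned the region of greatest covered length at its ends. Gene ends and starts were those of RefSeq on GRCm38.p6, counted from 1. Widths were tested with limma 3.58.1 in R 4.3.3 (Benjamini-Hochberg, threshold 0.05), a procedure tested on simulated data. The simulated noise was independent between libraries, so the simulation had no spread between clones at single regions. Other values were computed with Python 3.11.15, pandas 2.3.3 and numpy 2.4.6. Within the other lists, genes were named by the difference in marked libraries between genotypes, then by width change. The 10 genes and the lists were chosen with earlier results of these data known. Genes called between isolate pairs and genes sharing a pattern were named after their values were seen. Some genes that these rules name are not reported here. Alternatives covered windows, overlap, list length, merging, centring, blocks and leaving out each library.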

Additional observations from a re-analysis of the deposited data

Results flagged for a closer look

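Covered length at each of the 9 marked genes was examined in 4 groups of 4 libraries, by genotype and by isolate pair, for a library far from the other 3. Of 36 such groups 4 had one, and chance alone gives about 1 in 20 for independent normal values. Some of these groups hold values of 0 and those by genotype mix the isolate pairs, so that rate need not hold here. At Zfp42 replicate 1 of 4_1 had 2451 bp against 0 bp in the other pair 4 libraries. At Tfcp2l1 replicate 2 of 4_C2 had 0 bp against 1205 to 1423 bp in the other null libraries. At Klf2 replicate 2 of 6_1 had 7395 bp against 4073 to 4633 bp in the other pair 6 libraries, and at Nanog the same library had 4242 bp against 3037 to 3241 bp.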

How the results depend on the processing

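Of the log2 widths of single genes under the alternatives, 126 kept their direction and side of the threshold, 10 passed the threshold and 10 changed sign, none of the last being called. For null minus fx/fx the sign changed with equal-length lists at Sox2 (0.0015) and Klf4 (0.095), with a pseudocount at Klf4 (0.0051), and on leaving out single libraries at Klf4 (-0.058 to 0.051), Klf5 (-0.34 to 0.11) and Tfcp2l1 (0.088 without 4_C2 replicate 2). For pair 6 minus pair 4 it changed at Sox2 (-0.026 to 0.29, the lowest without 6_C4 replicate 2) and Tfcp2l1 (-0.036 without 4_C2 replicate 2). Leaving out each library gave 2 to 4 genes marked in fewer null and 2 to 4 in fewer pair 4 libraries, 0 to 1 regions called for genotype, 293 to 507 for isolate pair (695 with all 8) and 0 to 1 for the interaction. Once regions needed presence in only 4 lists, with a pseudocount, the 3 counts were 17, 1428 and 346, and without centring the pair count was 2746. Covered length inside the windows separated the pairs at 3 genes. A replicate block gave 0 regions for genotype, 629 for isolate pair and 0 for the interaction. Replicate differences of the clones in centred width correlated at -0.0258 to 0.109. Centring takes out a shift of a whole library, so this cannot settle whether equal numbers pair the libraries. In every clone replicate 1 had the longer list. The lists carry no scores or depth, which limits the comparison to peak presence and width.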

Other observations

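The genes whose covered length followed the mean profile of the 10 genes most closely over the 8 libraries, by Pearson's r of log2(bp + 100), were Angptl6 (0.997), Gstt2 (0.996), Anapc1 (0.995), Spats2l (0.995) and Ndufa13 (0.994). Such likeness was common, as 10.4% of genes had an r over 0.9, and all libraries share the same difference in list length between the isolate pairs.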
